A study of Mus musculus with 8 samples.

Results

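The keratin genes Krt7, Krt18 and Krt19 encode filament proteins of simple epithelia, and their transcripts were compared between Nfkbiz knockout and wild-type mouse keratinocytes. They were taken from the deposited table as the rows that the platform annotation names with a single symbol equal to Krt7, Krt18 or Krt19. Each symbol had 1 such probe set, a group of short probes read as 1 value, which gave 3 genes of the 9294 tested. The wild-type RAS group and the knockout RAS group held 4 arrays each, labelled as biological replicates of the C57BL/6 strain. Keratinocytes of both genotypes had received the v-rasHa oncogene, a viral form of activated Hras, 3 days before and were grown without starvation, so every culture carried the oncogene and none without it was measured. Nfkbiz encodes IkBz, a nuclear cofactor of NF-kB. The labels give neither the age of the mice, nor whether animals were pooled, nor which part of Nfkbiz was deleted.

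Keratins form intermediate filaments as pairs of a type I and a type II protein. Keratin 7 is a type II keratin of glands and ducts, keratin 18 is the type I partner of keratin 8 in most simple epithelia, and keratin 19 is a small type I keratin of ducts, of the hair follicle and of some basal cells. Normal epidermis between the follicles relies on keratins 5 and 14 in its basal layer and keratins 1 and 10 above it, and holds little of the simple-epithelial set, which is known to appear in cultured keratinocytes and in skin carcinomas. Krt8, Krt14 alone, Krt17 alone and Nfkbiz were not analysed here, so neither the partner of keratin 18 nor the knockout itself was checked.

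Krt7 and Krt18 lie on chromosome 15, at different places of the type II keratin cluster, and Krt19 lies in the type I cluster on chromosome 11. RefSeq promoter sequences of the build GRCm38.p6 were sought for all 3 genes. They matched 2 of them, Krt7 and Krt18, which are shown, and Krt19 had no entry. Each sequence covers the 250 bases before the annotated start, both on the plus strand, at chr15:101412153-101412402 for Krt7 and at chr15:102027966-102028215 for Krt18. Capitals mark the GC box, GGGCGG on either strand.
Krt7: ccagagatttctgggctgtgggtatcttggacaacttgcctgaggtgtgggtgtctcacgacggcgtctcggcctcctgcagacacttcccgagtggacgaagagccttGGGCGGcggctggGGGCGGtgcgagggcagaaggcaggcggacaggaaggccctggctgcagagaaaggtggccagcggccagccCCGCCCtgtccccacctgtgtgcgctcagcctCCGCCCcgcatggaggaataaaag
Krt18: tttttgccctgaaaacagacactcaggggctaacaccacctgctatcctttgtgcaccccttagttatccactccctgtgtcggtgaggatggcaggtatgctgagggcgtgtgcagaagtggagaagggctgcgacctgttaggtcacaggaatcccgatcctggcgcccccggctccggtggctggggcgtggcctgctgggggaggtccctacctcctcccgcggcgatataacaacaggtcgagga
The Krt7 sequence held 4 GC boxes, which are binding motifs of Sp-family factors. They began 141, 128, 56 and 24 bases before the start, the first pair on the plus strand and the other pair on the minus strand, and none overlapped another. The Krt18 sequence held none of these letters. Of the 32851 sequences of the same length in the RefSeq table, 32.7% held at least 1 GC box. Neither sequence held the letters TATAAA (12.4% of all sequences), the AP-1 motif TGANTCA (6.75%), the letters CCAAT (33.8%), the ETS motif CCGGAA (12.0%) or the consensus motif of NF-kB (3.90%), each searched on both strands. GC content was 66.0% for Krt7 and 60.4% for Krt18, beside a median of 52.4% over all sequences. A match is a description of letters only.

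Before any comparison, the arrays were similar in scale, with medians of 4.49 to 4.57 on the log2 scale. The keratinocyte transcripts Krt5 and Perp were strong in both genotypes. Krt5 had a log2 signal of 13.42 ± 0.03 in wild-type and 13.29 ± 0.06 in knockout arrays (SD, n = 4 per group). The epithelial p53 target Perp had 12.76 ± 0.04 in the wild type and 12.72 ± 0.05 in the knockout. Another keratinocyte marker, Krt15, had means of 4.63 and 4.74, near the array medians. Of the 7 measured keratinocyte markers, the hemidesmosome collagen gene Col17a1 was lower in the knockout with a log2 fold change of -0.31 and 6 did not pass the test. The result for Col17a1 did not pass in 1 of 17 alternative settings. The words rose, fell and called are used only of genes with an adjusted p under 0.05 in limma (Benjamini-Hochberg over all 9294 genes). By that rule 8.90% of all genes were called, 4.47% higher and 4.43% lower in knockout arrays. Centring on array medians gave 482 higher and 314 lower genes in place of 415 and 412, and the median log2 fold change of all genes was 0.02 in place of -0.01.

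Krt7, Krt18 and Krt19 all rose in the knockout cells. Krt7, the glandular type II keratin, rose by 0.76 ± 0.05 on the log2 scale (SE), a 1.69-fold difference in signal. Krt18, the partner of keratin 8, rose by 0.68 ± 0.06, a 1.60-fold difference. Krt19 rose by 0.54 ± 0.09, a 1.45-fold difference. The genes were chosen with earlier results of these data known, so their shared direction is a description. Of 7 fibroblast markers, 6 fell in these arrays, and the mesothelial gene Msln rose, and the part of other cells in the keratin changes was not tested.

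Krt7 had log2 signals of 8.98, 8.89, 8.93 and 9.02 in wild-type RAS replicates 1 to 4 and of 9.78, 9.66, 9.70 and 9.71 in knockout RAS replicates 1 to 4. The genotypes were far apart relative to their spread: the lowest knockout array lay 0.63 above the highest wild-type array, and the SD was 0.06 and 0.05. The mean went from 8.95 to 9.71, and the fold change had a 95% interval of 0.64 to 0.87 (limma adjusted p = 4.90e-06). Over the 17 alternative settings the log2 fold change stayed between 0.73 and 0.78, with an adjusted p of at most 0.000151 in limma.

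For Krt18 the wild-type log2 signals were 11.06, 10.93, 10.99 and 11.09, and the knockout signals were 11.76, 11.66, 11.65 and 11.74. Again every knockout array was above every wild-type array, with a gap of 0.55 between the nearest arrays. The mean went from 11.02 ± 0.07 to 11.70 ± 0.06 (SD, n = 4 per group), with a 95% interval of the fold change of 0.56 to 0.81 (limma adjusted p = 1.81e-05). The log2 fold change was 0.65 to 0.72 over the alternatives, with a largest limma adjusted p of 0.000222.

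Krt19 gave 5.01, 5.26, 4.93 and 5.32 in the wild-type arrays and 5.63, 5.71, 5.62 and 5.72 in the knockout arrays. Wild-type replicates 2 and 4 were higher than replicates 1 and 3, and the groups were nearer to each other than for the other two genes, with a gap of 0.30. The wild-type arrays varied more than the knockout arrays, with an SD of 0.19 and 0.05. The mean went from 5.13 to 5.67, not far above the array medians, where signal is harder to tell from background, and no detection calls were used. The 95% interval of the fold change was 0.35 to 0.73 (limma adjusted p = 0.00198), and the alternatives gave 0.47 to 0.60, with a limma adjusted p of at most 0.00877. The groups did not overlap for any of the 3 genes, which over all genes tested was so, with the knockout higher, for 7.91%.

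**Figure D1:**
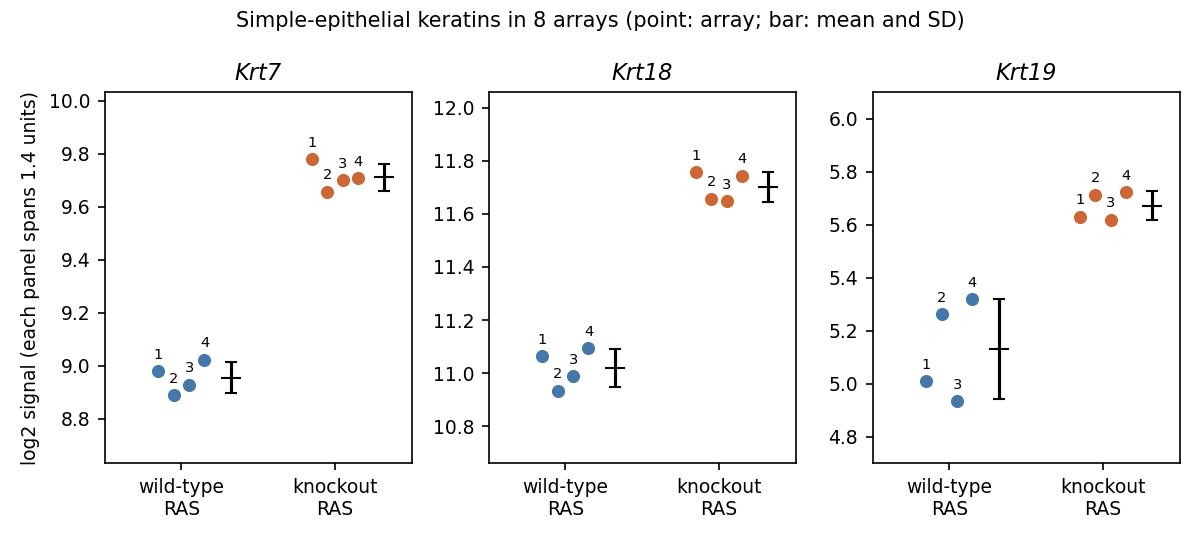
Log2 signals of Krt7, Krt18 and Krt19 in the 8 arrays, with a panel per gene, numbers for the replicate, and a bar for the mean and SD of each genotype (n = 4). The knockout arrays lie above the wild-type arrays in each panel, by at least 0.63 for Krt7, 0.55 for Krt18 and 0.30 for Krt19, and the wild-type arrays of Krt19 are spread the most.

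Within a genotype, Krt7 and Krt18 had a partly shared order of arrays. In the wild type, replicate 4 was the highest and replicate 2 the lowest for both genes. In the knockout replicate 1 was the highest for both, but the lowest was replicate 2 for Krt7 and replicate 3 for Krt18. Relative to its own wild-type mean, Krt7 stood at 0.82, 0.70, 0.75 and 0.75 in knockout replicates 1 to 4, and Krt18 at 0.74, 0.64, 0.63 and 0.73. Krt19 stood at 0.50, 0.58, 0.49 and 0.59 in the same arrays, so its order of knockout replicates was another one. In the wild type its highest array was also replicate 4. With 4 arrays per genotype, no correlation was computed.

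The sizes of the 3 changes were compared within arrays, in 3 pairs. Intervals of the differences are from limma, whose variance estimate borrows from all genes tested. The log2 fold change of Krt7 exceeded that of Krt18 by 0.07 (95% interval -0.03 to 0.18). An exact two-sided permutation test over the arrays gave p = 0.0286, the smallest that 4 against 4 arrays can give, and 0.0857 after Benjamini-Hochberg adjustment over the 3 pairs. Krt7 exceeded Krt19 by 0.22 (0.02 to 0.41; exact permutation p = 0.143, adjusted 0.214), and Krt18 exceeded Krt19 by 0.14 (-0.06 to 0.34; exact permutation p = 0.314, adjusted 0.314). No pair passed a threshold of 0.05 after adjustment, and these intervals allow differences of up to 0.41 between members. With 3 pairs, a single pair at the smallest possible p could not pass, so this result does not show equal changes. With each gene taken relative to its own wild-type mean, Krt7 minus Krt18 was -0.02 to 0.02 in wild-type and 0.03 to 0.12 in knockout arrays.

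The profile of Krt7 over the 8 arrays was nearer to that of Krt18 than to that of any other gene tested. Likeness was measured as the root mean square difference over the 8 arrays between log2 profiles centred on each gene's own mean, which depends mostly on the size of the genotype difference. It was 0.04 for Krt7 and Krt18, while the median over all genes outside the keratins was 0.40 from Krt7 and 0.36 from Krt18. Krt19 was less alike, at 0.17 from Krt7 and 0.15 from Krt18.

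Outside the keratins, Irgm1, which encodes an immunity-related GTPase, had the profile nearest to both Krt7 and Krt18, at 0.05 from each. Next to Krt7 came the acetylcholine receptor gene Chrnb1, the ligand gene Wnt10a and the efflux transporter gene Abcg2, each at 0.06, with log2 fold changes of 0.80, 0.79 and 0.78. After Irgm1, Krt18 was followed by the exonuclease gene Isg20 (0.06), by Parp9 (0.07) and by Chrnb1 (0.07). The nearest to Krt19 were Rfx5, a transcription factor gene, at 0.09, and Irf9, the insulin receptor substrate gene Irs1 and Parp9, each at 0.10. All of these genes rose, and the measure says only that their values ran alike.

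Among the measured keratins, the 3 members, chosen with earlier results of these data known, were the only ones to rise. Limma called 3 of the 39 measured keratin genes higher and 8 lower and left 28 without a call, beside 4.47% and 4.43% of all genes called higher and lower. The 3 that rose were Krt7, Krt18 and Krt19, and no other keratin was higher by this test under any of the 17 alternatives. The 36 other keratins had log2 fold changes from -1.38 to 0.19 with a median of -0.03, beside -0.01 over all genes. Of the 28 without a call, 15 had means under all array medians in both genotypes, where signal is harder to tell from background.

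The largest falls among the keratins were those of Krt6b, Krt75, Krt23 and Krt84. Krt6b, a keratin of wounded and hyperproliferative epidermis, fell by 1.38 ± 0.11 on the log2 scale (SE), and Krt75, of the companion layer of the follicle, fell by 0.95 ± 0.10. Krt23, a type I keratin known from simple and glandular epithelia, fell by 0.80 ± 0.12, opposite to the 3 members. The hair keratin gene Krt84 fell by 0.40 ± 0.07, with a knockout mean of 4.50 at the array medians.

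Smaller falls were seen in Krt78, Krt16, Krt36 and Krt80, by 0.30, 0.27, 0.24 and 0.21. These calls were less stable than those of Krt6b, Krt75, Krt23 and Krt84, which held in all 17 alternatives. Krt36 kept its call only without knockout replicate 3, of the fits that left out 1 array, and Krt80 only without wild-type replicate 1, and centring on array medians ended both calls. Krt16 lost its call without wild-type replicate 2 or 3 or knockout replicate 1, and Krt78 without wild-type replicate 1, 2 or 4 or knockout replicate 1 or 3. Between 4 and 6 keratins were lower when any 1 array was left out, in place of 8: 4 without wild-type replicate 2 or knockout replicate 1, and 5 without wild-type replicate 4. With arrays centred on their medians 6 were lower.

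**Figure D2:**
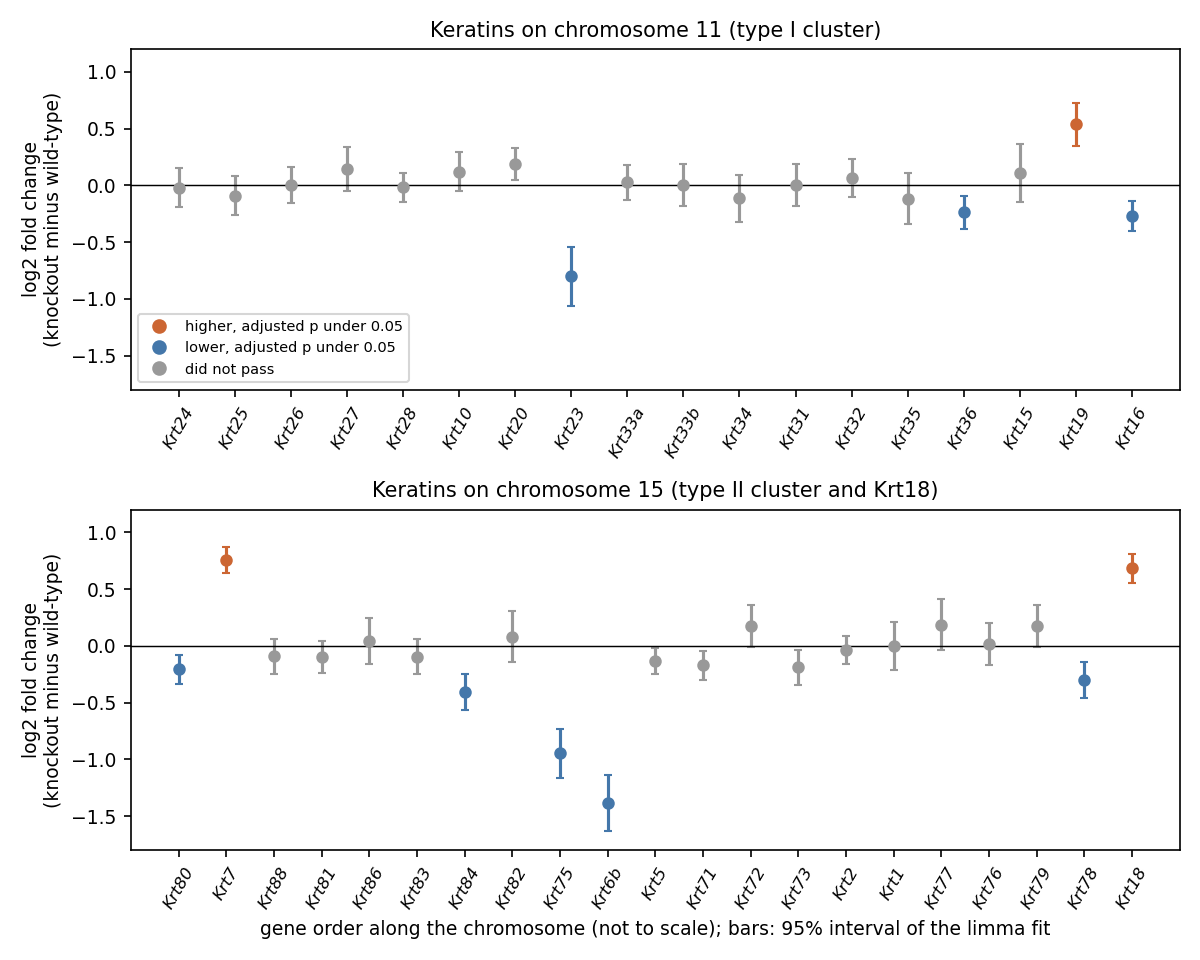
Log2 fold change (knockout minus wild-type) with its 95% interval in limma for the 39 keratin genes, in gene order along chromosome 11 (18 genes) and chromosome 15 (21 genes). Krt19 on chromosome 11 and Krt7 and Krt18 on chromosome 15 are the 3 genes that passed the test on the higher side, and 8 passed on the lower side.

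The keratins measured next to each member did not rise. Krt80 and Krt88 flank Krt7 among the measured genes and had log2 fold changes of -0.21 and -0.09. Krt78 and the tensin gene Tns2 flank Krt18, at the edge of the type II cluster, with -0.30 and 0.04. Beside Krt19, the basal and follicle keratin Krt15 had 0.11 and the stress keratin Krt16 had -0.27. On chromosome 11, 1 of 18 keratins rose and 3 fell, and on chromosome 15, 2 of 21 rose and 5 fell.

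Keratins that share sites of expression with the members were not raised as a group. Of 7 listed keratins of simple, glandular and internal stratified epithelia, 4 were measured: Krt23 and Krt80 fell, and Krt20 and Krt79 had log2 fold changes of 0.19 and 0.18 with limma adjusted p of 0.112 and 0.272. Krt20, a keratin of gut epithelium and Merkel cells, had means of 3.44 and 3.63, under the array medians. Of 13 listed epidermal keratins, 10 were measured, of which 4 fell and 6 did not pass, with a median of -0.08. The basal keratin Krt5 had -0.13 ± 0.05 and the spinous keratins Krt1 and Krt10 had 0.00 ± 0.10 and 0.12 ± 0.08 (SE; limma adjusted p = 0.167, 0.996 and 0.419).

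**Figure D3:**
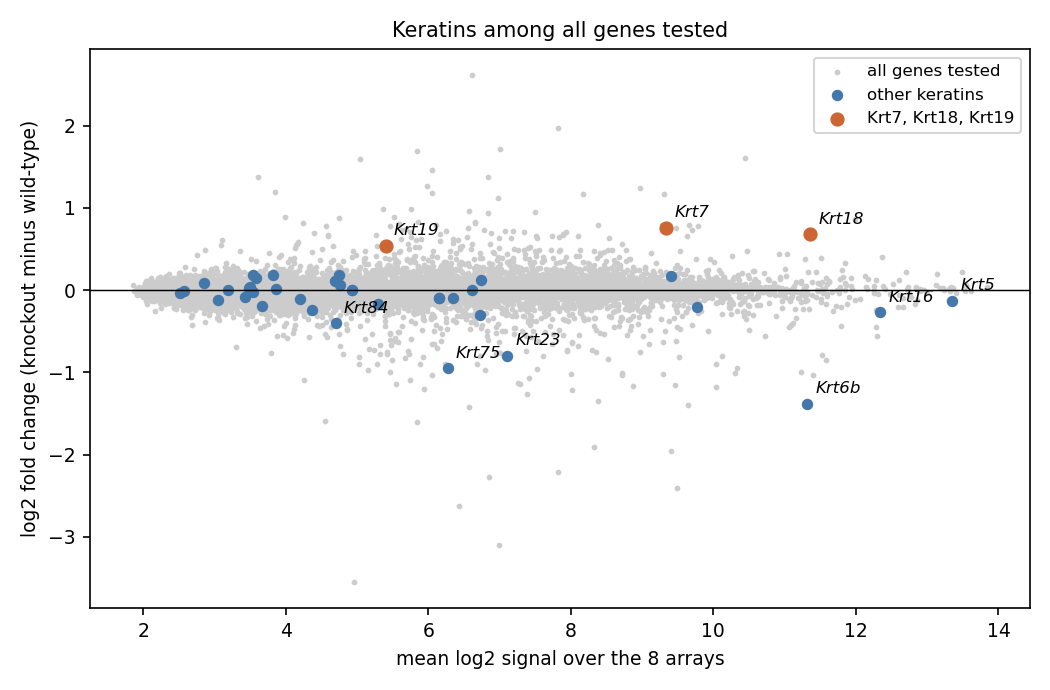
Log2 fold change against the mean log2 signal over the 8 arrays for the 9294 genes tested (grey), the 36 other keratins (blue) and Krt7, Krt18 and Krt19 (orange). The 3 members lie at 0.54 to 0.76 above 0, and Krt6b at -1.38 is the lowest keratin.

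Transcripts of keratin partners and regulators were measured for 9 of 23 listed genes, of which 1 rose, 2 fell and 6 had no call. Eppk1, the gene of epiplakin, a cytolinker that binds keratins of simple epithelia, rose by 0.35 ± 0.06 (SE). The junction protein gene Pof1b fell by 0.43 ± 0.08, and the envoplakin gene Evpl by 0.23 ± 0.06. The call of Evpl was lost in 8 of the 17 alternatives, among them without wild-type replicate 2, 3 or 4 or knockout replicate 1, 3 or 4. The list had a median of -0.07. None of the 4 measured genes of other intermediate filaments, Nefm, Nefh, Bfsp1 and Bfsp2, passed the limma test, where 0 had an unadjusted p under 0.05, and vimentin was not analysed here.

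Other genes of simple epithelia moved in either direction. Of 28 listed genes 15 were measured, of which 3 rose, 1 fell and 11 did not pass, with a median log2 fold change of -0.03. Cldn7 and Cldn4, which encode claudins of tight junctions, rose by 0.39 ± 0.06 and 0.20 ± 0.05 (SE), and Prom1, a gene of apical membrane protrusions, rose by 0.48 ± 0.12. Rab25, an epithelial gene of apical recycling, fell by 0.20 ± 0.06. The calls of Cldn4 and Rab25 were each lost in 10 alternatives, Cldn4 with any 1 array left out, and Rab25 with any 1 left out except wild-type replicate 4. Prom1 lost its call without wild-type replicate 2 or 4 or knockout replicate 1, 3 or 4, while Cldn7 held in all 17.

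Of 8 measured transcription factor genes of stratified epithelium, limma called 5 lower and left 3 without a call, with a list median of -0.36. Prdm1, a repressor of the upper epidermis and the sebaceous gland, fell by 0.68 ± 0.07 (SE). The grainyhead-like genes Grhl1 and Grhl3, which act in barrier formation, fell by 0.50 ± 0.06 and 0.45 ± 0.05, and Cebpa, a differentiation factor of the suprabasal layers, by 0.43 ± 0.06. These 4 calls held in all 17 alternatives.

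The known Ras-responsive enhancer in the first intron of the keratin 18 gene holds ETS and AP-1 sites, so genes of these factors were listed. Of 7 measured, Atf3 rose by 0.66 ± 0.07, Fos fell by 0.54 ± 0.06 (SE) and 5 did not pass, with a median of -0.02. Apart from Spi1, the ETS factors of the list were not analysed here, nor were Jun and Fosl1.

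Retinoids are known to raise keratin 19 and other simple keratins in cultured keratinocytes, and 10 of 18 listed retinoid genes were measured. Of these 2 rose, 3 fell and 5 did not pass, with a median of 0.02. Rarb, which encodes a retinoic acid receptor that retinoic acid itself induces, rose from 5.32 ± 0.07 to 6.06 ± 0.22 (SD, n = 4 per group), a log2 fold change of 0.74 ± 0.10 (SE). Crabp1, a cytoplasmic retinoic acid carrier, fell by 1.01 ± 0.07, and Cyp26b1, which degrades retinoic acid, fell by 0.50 ± 0.09. Dhrs3, a retinal reductase gene named after its values were seen, rose by 0.23 ± 0.06, a call lost in 8 alternatives, among them with any 1 array left out except wild-type replicate 3. Crabp2 fell by 0.23 ± 0.07, a call lost in 11 alternatives, among them without wild-type replicate 1, 2 or 3 or knockout replicate 1, 3 or 4.

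**Figure D4:**
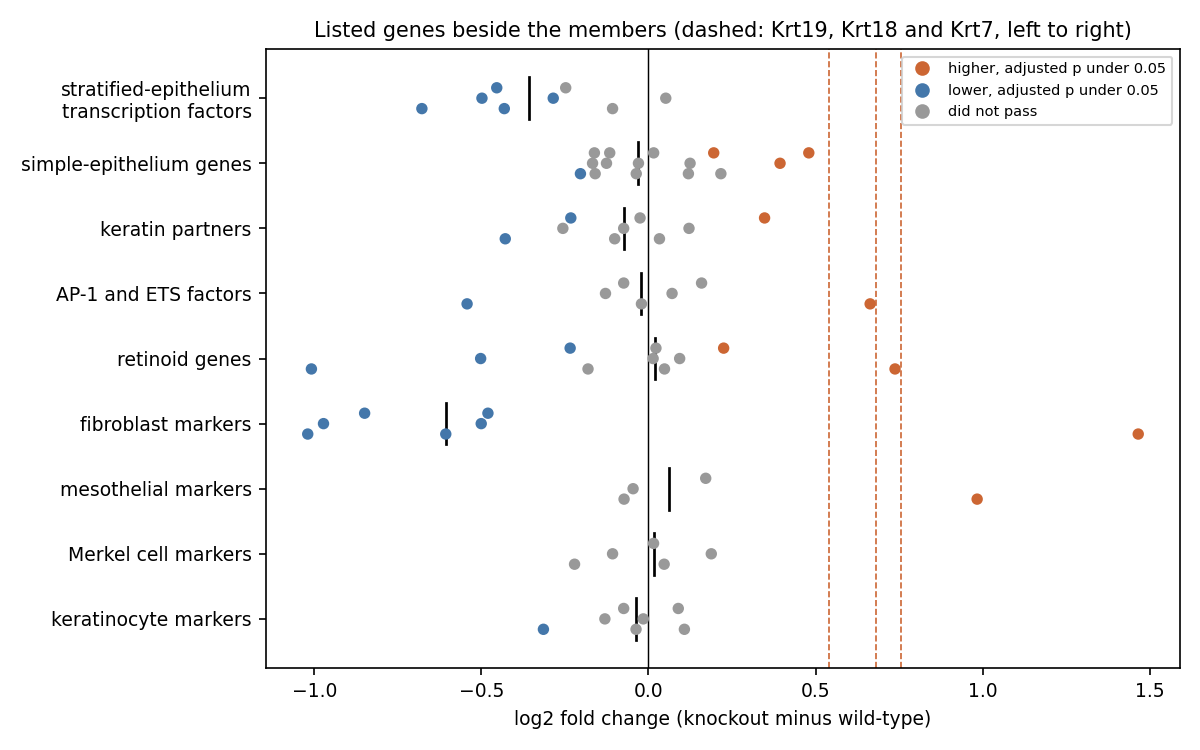
Log2 fold changes of the measured genes of gene and marker lists, coloured by their call, with a black bar at the median of each list and dashed lines at Krt19, Krt18 and Krt7 (0.54, 0.68 and 0.76). Transcription factor genes of stratified epithelium lie mostly below 0, with a median of -0.36, and simple-epithelium genes lie on both sides.

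Markers of other cells that make these keratins, or that a skin culture can hold, were read in the same arrays. In bulk RNA, more cells that make a transcript and more transcript per cell cannot be told apart. Merkel cells, the touch cells of the epidermis, make keratins 18 and 20. None of 5 measured Merkel cell markers was called in limma, 1 of them, Krt20, had an unadjusted p under 0.05, and the defining gene Atoh1 had means of 4.67 and 4.68, near the array medians. The summed linear signal of this list was 73.1 to 84.6 in wild-type and 72.6 to 83.3 in knockout arrays.

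Among 4 measured mesothelial markers, mesothelin, Msln, rose by 0.98 ± 0.14 on the log2 scale (SE), from 4.87 to 5.86, and 3 did not pass. Of the 4, Msln and Muc16, 2 in all, had an unadjusted p under 0.05 in limma. The defining mesothelial factor Wt1 had 2.79 and 2.72, and Wt1, Lrrn4 and Muc16 were all under the array medians. The summed signal of the list was 52.7 to 57.5 in wild-type and 68.1 to 94.4 in knockout arrays. Of 6 measured gland markers, the calcium channel gene Trpv6 rose by 0.40 ± 0.08 (SE) and 5 did not pass, with summed signals of 112 to 123 and 127 to 138. Trpv6 had means of 4.725 and 5.124, not far above the array medians. The water channel gene Aqp5 had 0.17, and it and Trpv6 were the 2 gland markers with an unadjusted p under 0.05 in limma. None of 5 sebocyte markers passed (summed signals of 4011 to 4219 and 4111 to 4299), and 0 of them had an unadjusted p under 0.05 in limma. Of 4 follicle markers, Krt75 fell and 3 did not pass, with summed signals of 183 to 199 and 125 to 147. In limma, 3 of these 4 had an unadjusted p under 0.05.

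Fibroblast markers fell in the knockout. Of 7 measured, 6 fell and 1 rose, with a median of -0.61 and summed signals of 947 to 1028 in wild-type and 621 to 707 in knockout arrays. Twist2 fell by 1.02 ± 0.06 (SE), Dcn by 0.97 ± 0.08 and Dpt by 0.85 ± 0.07, and Postn rose by 1.47 ± 0.09.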

How the data were processed

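Total RNA of mouse keratinocytes, purified by Trizol and column and biotin-labelled per the labels' protocols, was measured on 8 one-colour oligonucleotide arrays, 4 per genotype. The authors deposited 11373 probe sets with 1 value per array, read as log2 signals because they span 1.57 to 13.9. How they were summarised and normalized, and any batch, is not given in the sources used here. Of the probe sets, 9374 had 1 gene symbol in the platform annotation, and each gene was represented by its probe set with the highest mean, which left 9294 genes.

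Values were fitted without further normalization in R 4.3.3 with limma 3.58.1 (lmFit, then eBayes), knockout minus wild-type, with no covariate, Benjamini-Hochberg adjustment and a threshold of 0.05. P-values measure the spread between the labelled biological replicates, and their number limits the precision. The functions were tested on simulated data. Alternatives were quantile normalization, median centring, leaving out the lowest 25% of genes, averaged probe sets, every probe set with 1 symbol or, added after seeing the data, every deposited probe set, another variance model, array weights, a replicate block and leaving out each array, 17 in all.

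The members and gene lists were chosen with earlier results of these data known. Genes named are the members, the keratins, up to 4 called genes per list with the largest change, genes needed to describe a marker, the nearest measured neighbours and the 4 genes nearest to each member in profile. Dhrs3, and genes without a call, were named after their values were seen. Arrays were not paired by replicate number in the main fit. Deviations of arrays with the same number correlated at -0.05 to 0.09, and those with other numbers at -0.101 to 0.113. These values over all genes cannot settle whether the cultures were paired.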

Additional observations from a re-analysis of the deposited data

Results flagged for a closer look

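In 92 checks of the 4 arrays of a genotype, over 46 named genes, 4 found an array far from the others relative to their range, which chance does for about 1 in 20 such groups. Abcg2, named for its likeness to Krt7, had a log2 signal of 10.14 in knockout replicate 4 while the other knockout arrays were all at 10.18. Twist2 had 8.44 in wild-type replicate 2, with 8.53 in the others. Cyp26b1 had 7.56 in wild-type replicate 4, with 7.17 to 7.22 in the others. Dhrs3 had 8.08 in knockout replicate 2, with 7.99 to 8.00 in the others. None of Krt7, Krt18 and Krt19 had such an array in either genotype.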

How the results depend on the processing

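Krt7, Krt18 and Krt19 stayed higher in the knockout and past the threshold in all 17 alternatives, and 3 keratins were higher in each. Each member had 1 probe set. The settings on probe sets, on the lowest genes, on variance and on the block left its fold change as it was. They could change only its SE and adjusted p. With the replicate block, the fold changes were 0.76, 0.68 and 0.54, with limma adjusted p of 0.000151, 0.000222 and 0.00221, 659 genes were called in place of 827, and 7 keratins fell. The block also ended the calls of Krt80, Evpl, Crabp2, Dhrs3, Rab25, Cldn4 and Col17a1, and ended none of the other calls among the 46 genes run through the alternatives. Leaving out 1 array gave 4 to 6 keratins lower in place of 8. Median centring gave 6 lower keratins and 796 genes called. Of these 46 genes, 11 lost their call in at least 1 alternative, and none changed direction in any. Between 598 and 1134 genes were called over the alternatives. The cause of these changes was not tested. Leaving out 1 array also lowers the number of arrays. Signals near or under the array medians, such as those of Krt19, Krt20, Krt36 and Krt84, may be limited by background, and no detection calls were used.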

Other observations

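A probe set that names Krt17 and Krt14 together was outside the gene-level comparison. Its log2 signal was 6.28 ± 0.18 in wild-type and 6.25 ± 0.26 in knockout arrays (SD, n = 4 per group), with ranges of 6.08 to 6.52 and 5.95 to 6.50 that overlap. Of 3 melanocyte markers, Pmel fell by 0.28 on the log2 scale and 2 had no call in limma, and the list median was -0.20. None of 7 leukocyte markers and none of 5 endothelial markers passed the limma test at the adjusted threshold, with medians of -0.01 and -0.13, and 2 leukocyte markers and 1 endothelial marker had an unadjusted p under 0.05.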
